A study of Mus musculus with 6 samples.

Results

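The 9 genes described here make up a short list of the response of mouse lung to cigarette smoke through the aryl hydrocarbon receptor (AHR). They are Cyp1a1, Cyp1a2, Cyp1b1, Ahrr, Tiparp, Ahr, Nqo1, Aldh3a1 and Ugt1a6a. They were chosen by name and matched by Ensembl identifier to GENCODE M21, and they are 9 of the 55573 genes in the deposited tables. The lungs came from wild type C57BL/6 mice, 9 to 10 weeks old. The SS-31H_CS group (3 libraries) breathed smoke and received 5 mg/kg of SS-31 each day, a peptide that reaches mitochondria and acts as an antioxidant there. The CS group (3 libraries) breathed smoke alone, for 75 min at a time, with 2 such sessions daily, 5 days weekly, over 4 weeks. The labels state that schedule for CS only, and they name no vehicle for CS. No library from smoke-free mice was analysed here, so the comparison shows how the groups differed under smoke and not how smoke moved the genes. The labels do not say that each library came from its own mouse, so p-values measure the spread between these libraries, which may be technical.

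AHR is a transcription factor that waits in the cytosol in a complex with the chaperone HSP90. Polycyclic aromatic hydrocarbons, which are made when tobacco burns, bind it, and it then enters the nucleus, pairs with ARNT and binds the xenobiotic response element. It induces the CYP1 monooxygenases, which oxidize those hydrocarbons, and a battery of conjugating and reducing enzymes. Among its targets are its own repressors, AHRR and TIPARP, which close a negative feedback loop. Mice of the C57BL/6 strain carry a high-affinity form of the receptor. In rodent lung, CYP1A1 is known to be inducible in endothelium, club cells and alveolar type 2 cells.

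Promoter sequences of 4 members are shown because their levels differ most in kind: Cyp1a1 and Cyp1b1 varied most between libraries, the Nqo1 libraries of the groups did not overlap, and Ahrr was almost without reads. RefSeq (GRCm38.p6) gave windows for 7 of the 9 genes, each from 250 bases before to 50 bases after the transcription start. Capitals mark the letters GCGTG, the core of the xenobiotic response element, on either strand (CACGC on the other). The windows are chr9:57697363-57697662 on the plus strand for Cyp1a1 and, on the minus strand, chr17:79715012-79715311 for Cyp1b1, chr13:74292282-74292581 for Ahrr and chr8:107403156-107403455 for Nqo1. All are printed in the 5′ to 3′ direction of the gene.
Cyp1a1: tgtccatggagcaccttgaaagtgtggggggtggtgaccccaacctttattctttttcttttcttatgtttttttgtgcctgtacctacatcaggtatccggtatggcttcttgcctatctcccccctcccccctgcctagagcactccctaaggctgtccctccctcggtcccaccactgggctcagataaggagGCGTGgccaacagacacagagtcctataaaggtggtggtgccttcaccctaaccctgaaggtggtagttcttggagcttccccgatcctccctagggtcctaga
Cyp1b1: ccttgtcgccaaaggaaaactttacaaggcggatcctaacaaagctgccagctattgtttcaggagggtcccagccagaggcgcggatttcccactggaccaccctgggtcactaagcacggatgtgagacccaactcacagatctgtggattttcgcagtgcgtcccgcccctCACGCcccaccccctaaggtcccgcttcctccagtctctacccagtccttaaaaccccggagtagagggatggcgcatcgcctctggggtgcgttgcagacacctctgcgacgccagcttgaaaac
Ahrr: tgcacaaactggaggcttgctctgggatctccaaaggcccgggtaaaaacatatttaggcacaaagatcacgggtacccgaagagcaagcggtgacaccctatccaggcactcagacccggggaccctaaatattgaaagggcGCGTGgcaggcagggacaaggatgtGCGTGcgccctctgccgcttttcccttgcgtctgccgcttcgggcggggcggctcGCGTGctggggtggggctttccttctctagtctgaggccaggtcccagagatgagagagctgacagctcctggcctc
Nqo1: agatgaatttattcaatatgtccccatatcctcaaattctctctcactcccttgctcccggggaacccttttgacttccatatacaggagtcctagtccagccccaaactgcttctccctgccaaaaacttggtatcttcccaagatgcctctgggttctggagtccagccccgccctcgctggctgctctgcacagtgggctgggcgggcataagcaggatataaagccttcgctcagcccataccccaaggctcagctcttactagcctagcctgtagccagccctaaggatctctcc

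The Cyp1a1 window held the core once, 54 to 50 bases before the start, and the Cyp1b1 window once on the other strand, 76 to 72 bases before it. Ahrr had 3 matches, beginning 107, 82 and 27 bases before its start. Tiparp had 1 match, on the other strand, 170 bases before its start, in a window of 73.7% G and C. The windows of Nqo1, Cyp1a2 and Ugt1a6a held none. Among all 32851 RefSeq windows of this length, 32.4% held at least 1 such match and 3.91% held 3 or more. The core of the antioxidant response element (TGACNNNGC, either strand), which NRF2 binds, was in none of the 7 windows and in 12.4% of all windows. The well-known Cyp1a1 enhancer lies further upstream than these windows reach.

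Total counts ran from 15611925 to 16942014 in the SS-31H_CS libraries and from 17056917 to 17360052 in the CS libraries. Of 16965 genes with enough counts to be tested, 26 (0.153%) changed between the groups at an adjusted p under 0.05. One CS library stood apart: replicate 3 lay at 61.3 on the first principal component (46.4% of the variance), against 14.4 and 7.19 for CS replicates 1 and 2. SS-31H_CS replicate 3 lay at the other end, at -44.8. In CS replicate 3 the summed level of 5 B cell markers was 43.6 CPM (counts scaled to library size), against 168 and 231 CPM in CS replicates 1 and 2. Values of the 7 tested AHR genes are therefore given with and without CS replicate 3. Lung markers were present: 7 alveolar type 2 genes summed to 16923 to 22909 CPM over the 6 libraries, and 6 hepatocyte genes to 8.50 to 16.01 CPM. Squamous epithelium markers summed to 1.82 to 3.73 CPM, with Krt6a and Sprr3 at 0 in all libraries.

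Of the 9 genes, 7 had enough counts to be tested. For 1 of the 7 the groups did not overlap, with SS-31H_CS lower, and 12.4% of all tested genes did so in that direction. Nqo1, the quinone reductase gene, was 2.51-fold lower in SS-31H_CS lungs, with all 3 libraries below the lowest CS library. Cyp1a1 and Aldh3a1 were also lower on average, by 6.77-fold and 2.22-fold, but CS replicate 3 lay among the SS-31H_CS libraries. None of the 7 passed an adjusted p of 0.05 over all genes in the quasi-likelihood fit of edgeR. At an unadjusted p under 0.05, 4 of the 7 were lower (Nqo1, Aldh3a1, Cyp1a1 and Tiparp), against 8.23% of all tested genes, and 0 were higher, against 9.93% of all tested genes. The median log2 fold change of the 7 was -0.81 (-1.25 to -0.47 with single libraries left out), and that of all tested genes was 0.01. DESeq2 called 2 of the 7, Nqo1 and Aldh3a1, where it called 5.94% of all genes. Without the low-count filter edgeR called Cyp1a1 as well, 3 in all, where it called 2.2% of genes. Limma voom and the 3 fits on FPKM (the authors' unit, scaled to gene length and library size) called 0.

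Compared per length, the order of Cyp1a1 and Ahr among the 9 differed between libraries. In SS-31H_CS, Cyp1a1 stood below Ahr, Aldh3a1 and Tiparp in replicate 1 and behind 1 gene in replicates 2 and 3. In CS it stood first in replicates 1 and 2 and below Aldh3a1, Nqo1 and Tiparp in replicate 3. Ahr stood first in SS-31H_CS replicates 1 and 2 and below Cyp1a1 in SS-31H_CS replicate 3 and in all 3 CS libraries. Cyp1a1 FPKM averaged 11.1 ± 5.97 in SS-31H_CS and 73.6 ± 56.9 in CS (SD, n = 3 each). Aldh3a1 averaged 13.8 ± 4.97 FPKM in SS-31H_CS and 29.9 ± 11.01 FPKM in CS. The receptor gene Ahr averaged 15.2 ± 2.93 FPKM in SS-31H_CS and 11.3 ± 3.97 FPKM in CS. Nqo1 averaged 4.79 ± 1.04 FPKM in SS-31H_CS and 11.6 ± 1.57 FPKM in CS. Tiparp averaged 7.44 ± 1.28 FPKM in SS-31H_CS and 9.24 ± 0.893 FPKM in CS. Within SS-31H_CS, Ahr, Aldh3a1 and Cyp1a1 overlapped in range, as did Cyp1a1 with both Tiparp and Nqo1, and Nqo1 with Cyp1b1. Within CS, Nqo1, Ahr and Tiparp overlapped in range, Cyp1a1 overlapped all of these and Aldh3a1, and Cyp1b1 overlapped Ahr. Cyp1b1 averaged 2.90 ± 1.47 FPKM in SS-31H_CS and 4.93 ± 2.52 FPKM in CS. Ugt1a6a averaged 0.517 ± 0.0702 FPKM in SS-31H_CS and 0.543 ± 0.215 FPKM in CS, and lay below Cyp1b1 in every library. Ahrr was at or below 0.05 FPKM in every library.

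**Figure D1:**
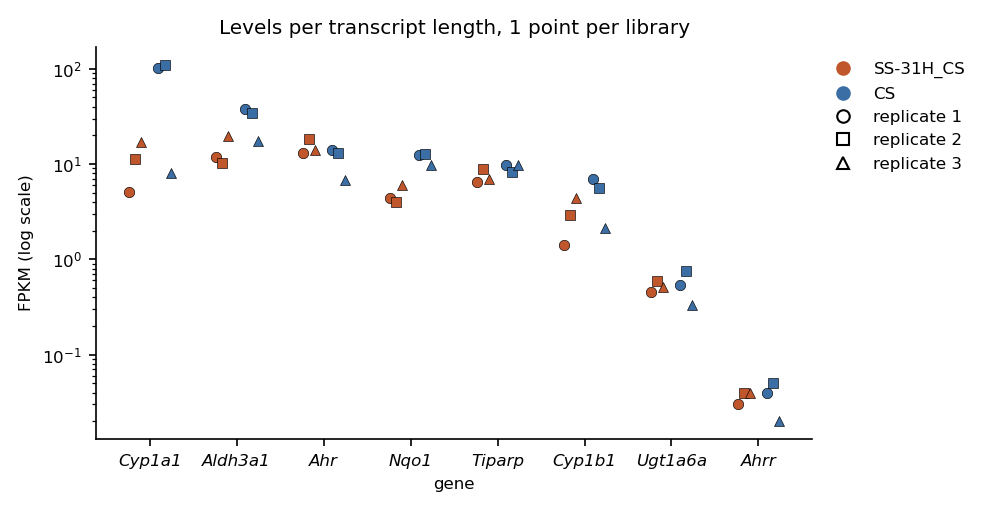
Levels of 8 genes in FPKM (log axis), 1 point per library, SS-31H_CS left of CS for each gene; Cyp1a2 is left out because it had no reads. Cyp1a1 spanned 5.06 to 16.99 FPKM in SS-31H_CS, and in CS it reached 103 and 110 FPKM in replicates 1 and 2 but 7.97 FPKM in replicate 3.

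The CYP1 enzymes carried the widest spread between libraries. Cyp1a1 (ENSMUSG00000032315, chromosome 9, 57687928 to 57703824), the monooxygenase gene used most often as a readout of AHR activity, had 14.1, 30.1 and 47.2 CPM in SS-31H_CS replicates 1, 2 and 3. In CS replicates 1, 2 and 3 it had 291, 305 and 23.4 CPM. CS replicates 1 and 2 were high, and CS replicate 3 was below SS-31H_CS replicates 2 and 3, so the groups overlapped. The log2 fold change was -2.76 (SE 0.84, 95% interval -4.68 to -0.84), with an adjusted p of 0.165 in edgeR. Without CS replicate 3 it was -3.29, with an adjusted p of 0.0565. The mean of CS replicates 1 and 2 was 12.7 times the level in CS replicate 3, a larger gap than the 3.35 times between the highest and lowest SS-31H_CS libraries.

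Cyp1b1 (ENSMUSG00000024087, chromosome 17, 79701537 to 79715061) encodes the CYP1 enzyme of stromal cells and tissues outside the liver. It had 8.33, 16.2 and 25.3 CPM in SS-31H_CS replicates 1, 2 and 3 and 41.7, 32.6 and 13.2 CPM in CS replicates 1, 2 and 3. The order of the 6 libraries was close to that of Cyp1a1: CS replicates 1 and 2 were highest, CS replicate 3 was next to lowest and SS-31H_CS replicate 1 was lowest for both. The log2 fold change was -0.81 (SE 0.47, 95% interval -1.89 to 0.27, adjusted p = 0.399), and -1.16 without CS replicate 3 (adjusted p = 0.255). Without SS-31H_CS replicate 1 it was -0.49 and without CS replicate 1 it was -0.47.

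Cyp1a1 and Cyp1b1 differed in how widely their levels were spread. The ratio of Cyp1a1 to Cyp1b1 in FPKM was 3.54, 3.89 and 3.90 in SS-31H_CS replicates 1, 2 and 3, against 14.6, 19.6 and 3.72 in CS replicates 1, 2 and 3. The 3 SS-31H_CS libraries thus had nearly the same ratio although their Cyp1a1 levels differed 3.35 times. CS replicate 3 lay among them, while CS replicates 1 and 2 were set apart by a high ratio. Cyp1a2 (ENSMUSG00000032310, chromosome 9, 57676937 to 57683703), the member of the family that is largely confined to liver, had 0 counts in all 6 libraries. A count of 0 allows up to 3 counts, or 0.172 to 0.185 CPM in these libraries, for counting error only. Cyp1a1 and Cyp1a2 are similar in sequence, and how reads that match both were counted is not given in the sources used here.

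Markers of cells in which CYP1A1 is known to be inducible differed between the groups in different directions. The 9 endothelial markers summed to 4626, 3998 and 3530 CPM in SS-31H_CS and to 5589, 5923 and 4961 CPM in CS, without overlap. Of the 9, 4 were lower at an unadjusted p under 0.05, against 8.23% of all tested genes, and 0 passed over all genes. The 7 club cell markers summed to 38563, 28713 and 62541 CPM in SS-31H_CS and to 28829, 24024 and 23925 CPM in CS. Most of the club cell sum was Scgb1a1, at 29357, 21245 and 48062 CPM in SS-31H_CS and 23014, 18984 and 18291 CPM in CS. Of the 7, 1 rose (Scgb3a2), and the median log2 fold change was 0.77. At an unadjusted p under 0.05, 4 were higher, against 9.93% of all tested genes. The 7 alveolar type 2 markers, with Sftpc as most of their sum, had a median of -0.16, with 0 passing. At an unadjusted p under 0.05, 1 (Abca3) was lower, against 8.23% of all tested genes. CS replicate 3, where Cyp1a1 was 12.7-fold lower than the mean of the other CS libraries, had the lowest of the 3 endothelial sums in CS (4961 CPM) and an alveolar type 2 sum of 19809 CPM, against 21286 and 19187 CPM in CS replicates 1 and 2. In bulk tissue, fewer cells of a type and less RNA per cell cannot be told apart. The part of cell composition in these results was not tested.

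**Figure D2:**
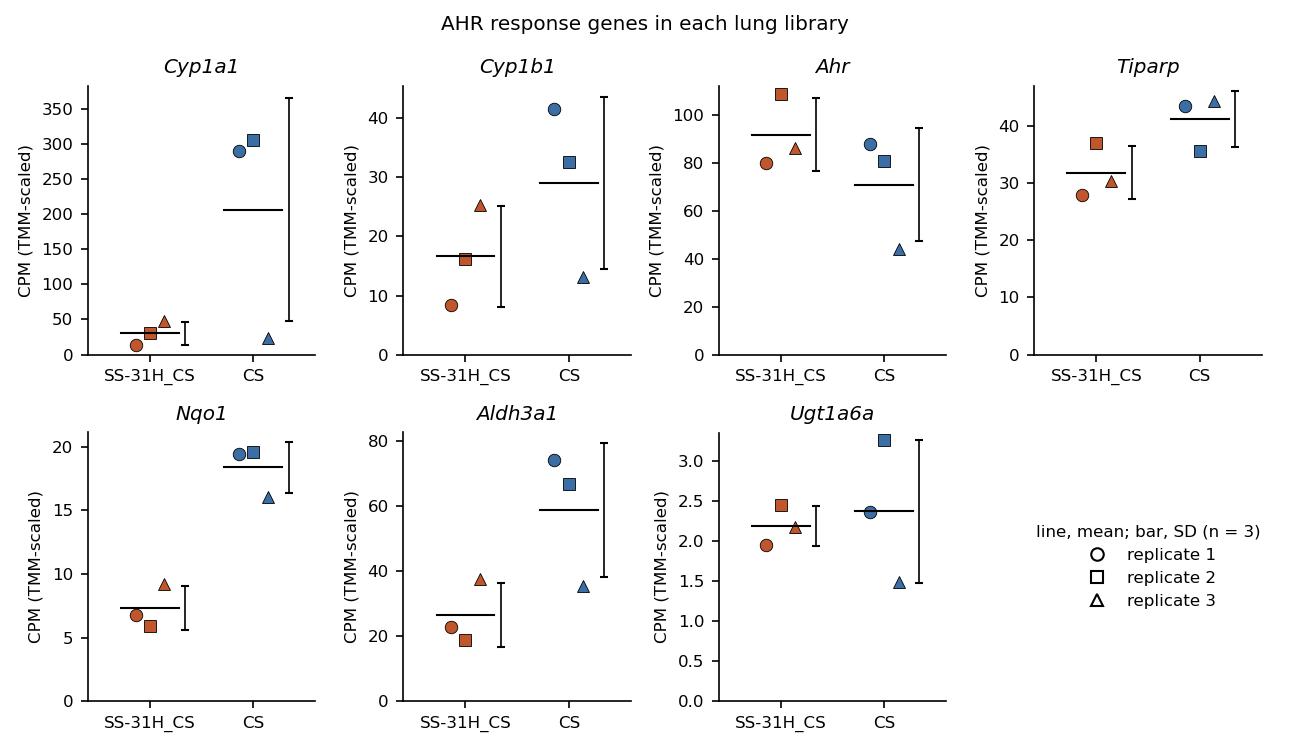
CPM of the 7 tested genes in each library, with symbols for replicates, a line at each group's mean and a bar for the SD (n = 3). Nqo1 libraries of SS-31H_CS (5.93 to 9.23 CPM) all sit below those of CS (16.1 to 19.6 CPM), and CS replicate 3 is the lowest CS library in every panel except Tiparp.

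For the receptor gene the mean was higher in SS-31H_CS, within the spread of the libraries. Ahr (ENSMUSG00000019256, chromosome 12, 35497974 to 35535038) had 79.8, 109 and 86.2 CPM in SS-31H_CS replicates 1, 2 and 3 and 87.9, 80.7 and 44.0 CPM in CS replicates 1, 2 and 3. CS replicate 3 was the lowest of the 6, and the other 5 lay between 79.8 and 109 CPM. The log2 fold change was 0.37 (SE 0.25, 95% interval -0.20 to 0.94, adjusted p = 0.461), and 0.11 without CS replicate 3. Per unit of receptor transcript, Cyp1a1 FPKM was 0.390, 0.613 and 1.21 times Ahr in SS-31H_CS replicates 1, 2 and 3. In CS replicates 1, 2 and 3 it was 7.31, 8.36 and 1.18 times Ahr.

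The feedback genes gave little contrast. Tiparp (ENSMUSG00000034640, chromosome 3, 65528410 to 65555518), a mono-ADP-ribosyltransferase that represses AHR, had 27.96, 36.9 and 30.4 CPM in SS-31H_CS replicates 1, 2 and 3. In CS replicates 1, 2 and 3 it had 43.5, 35.6 and 44.4 CPM. SS-31H_CS replicate 2 lay above CS replicate 2, and CS replicate 3 was the highest library, unlike its place for Cyp1a1. The log2 fold change was -0.37 (SE 0.14, 95% interval -0.70 to -0.05), with an adjusted p of 0.233, and -0.32 without CS replicate 3 (adjusted p = 0.400). Ahrr (ENSMUSG00000021575, chromosome 13, 74211118 to 74292331), which competes with AHR for ARNT, had 5, 6 and 7 counts in SS-31H_CS and 6, 8 and 3 counts in CS. It did not reach the count filter, and a difference was not detectable at this depth.

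Among the enzymes of the battery, Nqo1 gave the clearest separation. Nqo1 (ENSMUSG00000003849, chromosome 8, 107388225 to 107403206) reduces quinones and is induced by both AHR and NRF2. It had 6.80, 5.93 and 9.23 CPM in SS-31H_CS replicates 1, 2 and 3 and 19.5, 19.6 and 16.1 CPM in CS replicates 1, 2 and 3. The groups did not overlap, as for 12.4% of all tested genes in that direction. The log2 fold change was -1.33 (SE 0.20, 95% interval -1.79 to -0.86), with an adjusted p of 0.0606, and -1.42 without CS replicate 3 (adjusted p = 0.0818). Leaving out single libraries gave -1.53 to -1.20, with an adjusted p of 0.0818 to 0.220. By p, Nqo1 was number 45 of the 16965 genes.

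Aldh3a1 (ENSMUSG00000019102, chromosome 11, 61207537 to 61218421), which clears aldehydes, had 22.9, 18.8 and 37.7 CPM in SS-31H_CS replicates 1, 2 and 3. It had 74.3, 66.9 and 35.3 CPM in CS replicates 1, 2 and 3. The libraries that crossed were both replicate 3: SS-31H_CS replicate 3 lay just above CS replicate 3. The log2 fold change was -1.15 (SE 0.33, 95% interval -1.90 to -0.40, adjusted p = 0.148), and -1.42 without CS replicate 3 (adjusted p = 0.120). Ugt1a6a (ENSMUSG00000054545, chromosome 1, 88134809 to 88218997), a glucuronosyltransferase of the phenol-conjugating kind, had 1.95, 2.44 and 2.18 CPM in SS-31H_CS and 2.36, 3.27 and 1.48 CPM in CS. Its log2 fold change was -0.12 (SE 0.34, 95% interval -0.89 to 0.65, adjusted p = 0.878), -0.37 without CS replicate 3 and 0.18 without CS replicate 2. Its exons overlap those of 9 other annotated genes on the same strand over 50.3% of their length, since the Ugt1a genes share their last exons. Reads there cannot be assigned to 1 gene, and its values are uncertain. Of the other members, only Tiparp (5.12%) and Ahr (2.06%) have exons that overlap another gene, in both cases on the other strand.

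CS replicate 3 did not differ from its group in the same way for all members. Relative to the mean of CS replicates 1 and 2, it had 0.0786 times the Cyp1a1 level, 0.354 times Cyp1b1, 0.5003 times Aldh3a1, 0.522 times Ahr and 0.527 times Ugt1a6a. It had 0.822 times the Nqo1 level and 1.12 times the Tiparp level. Without it, 4 genes had groups that did not overlap, all lower in SS-31H_CS (Cyp1a1, Cyp1b1, Nqo1 and Aldh3a1), where 16.9% of all tested genes did so in that direction. None of the 4 then passed over all genes (adjusted p from 0.0565 for Cyp1a1 to 0.255 for Cyp1b1). For each of the 4, CS replicate 3 was the lowest CS library. Its removal therefore widens the gap by construction and gives no separate support for a difference. With replicate 3 of both groups left out, which leaves 2 against 2, 0.21% of genes changed. Cyp1a1 (-3.76, adjusted p = 0.00607), Aldh3a1 (-1.76, adjusted p = 0.00522) and Nqo1 (-1.62, adjusted p = 0.0205) were lower in that fit. For each of them, replicate 3 held the highest SS-31H_CS level and the lowest CS level. Leaving both out therefore widens the gap by construction, and these values are not separate support for a difference. Cyp1b1 was at -1.60 in that fit (adjusted p = 0.0904).

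**Figure D3:**
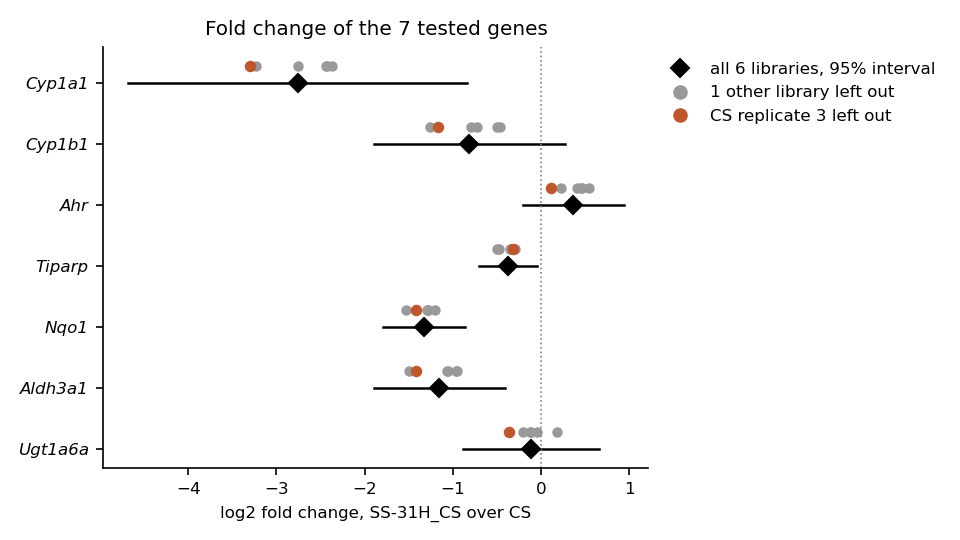
Log2 fold change (SS-31H_CS over CS) of the 7 tested genes with its 95% interval over all 6 libraries (black), and the values with 1 library left out (circles above; CS replicate 3 left out in orange). The intervals of Cyp1b1, Ahr and Ugt1a6a include 0, and only Ugt1a6a changed sign, at 0.18 without CS replicate 2.

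Genes were then ranked by how near their profile over the 6 libraries came to that of Cyp1a1 and Nqo1. The measure was the root mean square difference of log2 CPM, each gene centred on its own mean, among 15755 other genes whose mean reached 1 CPM. Nearest to Cyp1a1 were Xlr4a (0.71), Igkv4-57 (0.91), Spon2 (1.02), Cyp1b1 (1.03) and Dtx3l (1.11), against a spread of the Cyp1a1 profile itself of 1.73 on the same scale. Aldh3a1 was number 6 (1.12) and Nqo1 number 18 (1.29), while Ugt1a6a was number 277, Tiparp 1986 (1.65) and Ahr 2981 (1.67). A gene with no difference between libraries would score 1.73 by this measure, so the ranks of Tiparp and Ahr do not show a like profile. Xlr4a, an X-linked gene of the Xlr family, had 1.54, 2.81 and 3.35 CPM in SS-31H_CS and 9.97, 9.74 and 0.988 CPM in CS. It was lowest in CS replicate 3, where Cyp1a1 was next to lowest. Spon2, a secreted matrix protein gene, had 3.78, 5.19 and 6.35 CPM in SS-31H_CS and 19.6, 22.1 and 11.9 CPM in CS.

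Nearest to Nqo1 were Lpl (0.22), Gm43085 (0.27), Trarg1 (0.28), Aldh3a1 (0.28) and Marco (0.28), against a spread of 0.70 of the Nqo1 profile. Tiparp was number 1236 from Nqo1, Cyp1b1 2781, Ugt1a6a 7428, Ahr 13416 and Cyp1a1 15328 (1.29). The measure counts the size of the differences between libraries as well as their order, so ranks from Cyp1a1 and from Nqo1 differ. Lpl, the lipoprotein lipase gene, had 121, 123 and 121 CPM in SS-31H_CS and 280, 280 and 271 CPM in CS, and it fell (log2 fold change -1.19, adjusted p = 0.00900). Marco, a scavenger receptor gene of alveolar macrophages, had 15.1, 10.8 and 11.9 CPM in SS-31H_CS and 29.9, 25.4 and 21.9 CPM in CS (-1.03, adjusted p = 0.0800). The summed level of 10 alveolar macrophage markers, Marco among them, was 1169, 995 and 756 CPM in SS-31H_CS and 1875, 1647 and 2035 CPM in CS. Most of that sum was Chil3, at 794, 679 and 429 CPM in SS-31H_CS and 1400, 1222 and 1629 CPM in CS. Car4, another of the 10, is also among the endothelial markers. The median log2 fold change of the 10 was -0.40, with Ear1 at -0.10, Ear2 at -0.06 and Fabp1 at 0.81. Of these markers 0 passed over all genes and none was at 0 in all libraries. At an unadjusted p under 0.05, 5 of these 10 markers were lower, against 8.23% of all tested genes. Their part in the Nqo1 difference was not tested.

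**Figure D4:**
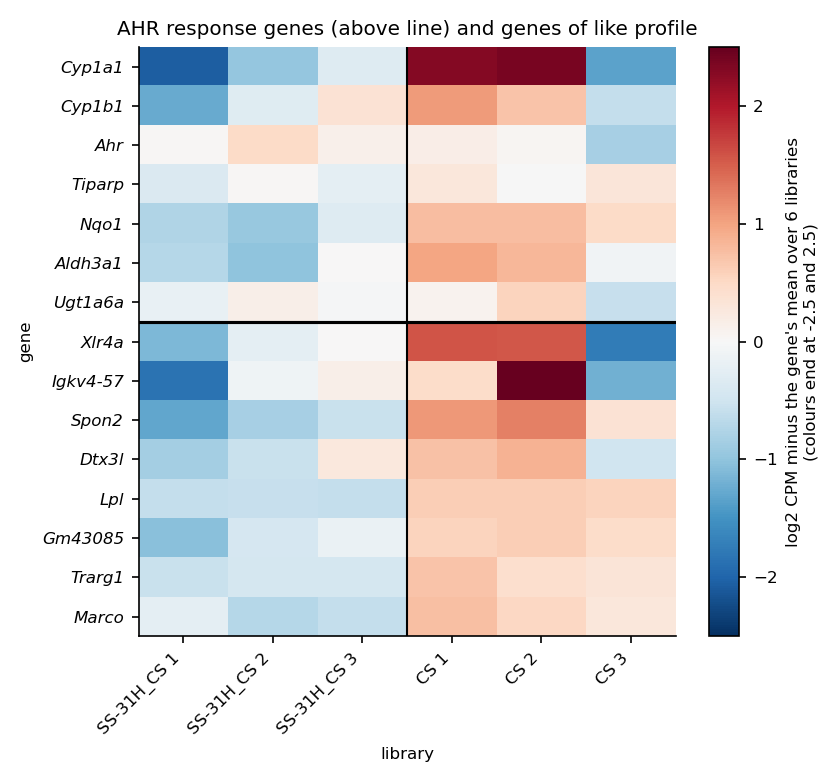
Log2 CPM of each gene minus its own mean over the 6 libraries (red above, blue below), for the 7 tested genes above the line and the genes of nearest profile below it. Cyp1a1 and Xlr4a are highest in CS replicates 1 and 2 and low in CS replicate 3, while Nqo1 and Lpl are high in all 3 CS libraries.

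The genes around the receptor lay close to equal in the groups. Of 11 genes for partners, chaperones and coregulators, 10 could be tested and 0 passed over all genes in either direction. The count at an unadjusted p under 0.05 was 0 in edgeR, DESeq2 called 0, and the median log2 fold change was -0.09. Arnt, the partner with which AHR binds DNA, had 88.0, 88.7 and 91.8 CPM in SS-31H_CS and 91.5, 90.6 and 87.7 CPM in CS. The lowest p values belonged to the coactivator genes Ncoa1 (-0.18, adjusted p = 0.343), Ncoa3 (-0.23, adjusted p = 0.378) and Ncoa2 (-0.17, adjusted p = 0.421), and to Hsp90aa1 (-0.17, adjusted p = 0.633).

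Other genes described as AHR targets, together with the rest of the Ugt1a locus, had values on both sides of 0. Of 21 listed, 13 could be tested, 0 passed over all genes, and 2 were lower and 2 higher at an unadjusted p under 0.05 (median -0.10). Cyp2s1, a further AHR-inducible P450 gene of airway epithelium, had 225, 163 and 349 CPM in SS-31H_CS and 118, 148 and 112 CPM in CS (log2 fold change 0.96, SE 0.26, adjusted p = 0.140). The club cell sums given above overlapped between the groups, with SS-31H_CS replicate 2 below CS replicate 1, and the ciliated cell sums did not overlap. The 7 ciliated markers summed to 743, 799 and 1118 CPM in SS-31H_CS and to 563, 536 and 395 CPM in CS. Of these markers 7 of 7 were higher at an unadjusted p under 0.05, against 9.93% of all tested genes, and 0 passed over all genes. Their part in the Cyp2s1 value was not tested. Xdh, the xanthine dehydrogenase gene, had 589, 500 and 283 CPM in SS-31H_CS and 688, 853 and 935 CPM in CS (-0.85, SE 0.26, adjusted p = 0.167), and was highest in CS replicate 3, where Cyp1a1 was low. Slc7a5, an amino acid transporter gene, was at -0.81 on the log2 scale (adjusted p = 0.172) and the cell cycle inhibitor gene Cdkn1b at 0.45 (adjusted p = 0.259). Of the Ugt1a genes, Ugt1a7c had the most counts, at 13.8, 8.31 and 4.70 CPM in SS-31H_CS and 11.9, 12.9 and 14.4 CPM in CS. Ugt1a2, Ugt1a8 and Ugt1a9 had 0 counts throughout.

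Enzymes that make or use the tryptophan metabolites known as natural AHR ligands were weakly expressed. Of 6, 4 could be tested and 0 passed over all genes, with 1 higher at an unadjusted p under 0.05. That gene, Kmo (kynurenine monooxygenase), had 7.27, 8.07 and 7.18 CPM in SS-31H_CS and 4.60, 4.76 and 1.30 CPM in CS (1.07, adjusted p = 0.237; 0.68 without CS replicate 3). Tdo2 (-0.74, adjusted p = 0.394), Kynu (-0.20, adjusted p = 0.653) and Ido1 (0.62, adjusted p = 0.710) followed. Tdo2 had 6.54 CPM in CS replicate 3, against 2.95 and 2.01 CPM in CS replicates 1 and 2, and was at -0.12 without CS replicate 3 (adjusted p = 0.896). Ido1, which is also in the list of other targets, was -0.65 without SS-31H_CS replicate 2.

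Because Nqo1, Aldh3a1 and Ugt1a6a also answer to NRF2, 16 further NRF2 targets were set beside them. All 16 could be tested and 0 passed over all genes, with 3 lower and 2 higher at an unadjusted p under 0.05 and a median of -0.14. The aldo-keto reductase gene Akr1b8 had 22.0, 25.0 and 23.9 CPM in SS-31H_CS and 31.9, 32.8 and 43.7 CPM in CS (-0.61, adjusted p = 0.117). Srxn1, sulfiredoxin, had 40.6, 30.9 and 36.3 CPM in SS-31H_CS and 49.0, 50.5 and 159 CPM in CS (-1.26, adjusted p = 0.198). CS replicate 3 was thus the highest library for Srxn1 and among the lowest for Cyp1a1, and the Srxn1 value was -0.47 without it. Txnrd1, thioredoxin reductase, was at -0.46 on the log2 scale (adjusted p = 0.199), and Ephx1, the epoxide hydrolase that acts after CYP1 enzymes on hydrocarbon epoxides, at 0.69 (adjusted p = 0.199).

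Genes that support P450 enzymes had values on both sides of 0. Of 6 for electron donors and heme synthesis, 0 passed over all genes, with 1 higher at an unadjusted p under 0.05 and a median of 0.07. Alas1, the first enzyme of heme synthesis, had 441, 416 and 753 CPM in SS-31H_CS and 302, 285 and 338 CPM in CS (0.80, SE 0.23, adjusted p = 0.150). The cytochrome b5 reductase gene Cyb5r3 was at -0.38 on the log2 scale (adjusted p = 0.280) and the P450 reductase gene Por at 0.45 (adjusted p = 0.307). DESeq2 called 5 genes of the 5 lists: Cyp2s1, Xdh, Slc7a5, Akr1b8 and Alas1, the same tool having called 5.94% of all genes.

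**Figure D5:**
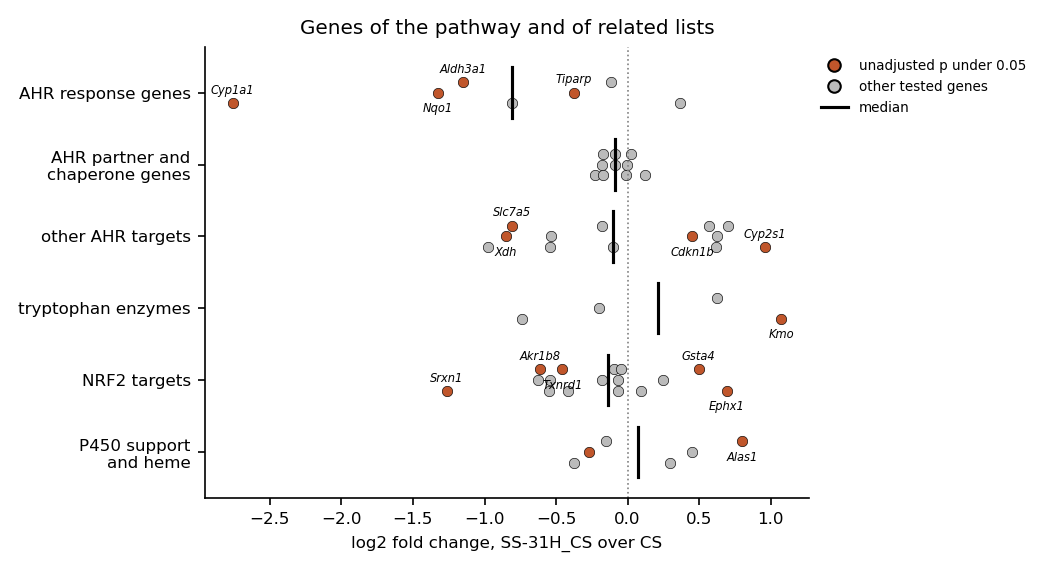
Log2 fold change (SS-31H_CS over CS) of each tested gene in the AHR response list and 5 related lists, with the median of each list as a line and genes at an unadjusted p under 0.05 in orange, with names beside those farther from 0. The AHR response genes have a median of -0.81, and the medians of the other 5 lists lie between -0.14 and 0.21. The value of -0.81 is that of Cyp1b1, whose interval includes 0, and the median ran from -1.25 to -0.47 with single libraries left out.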

How the data were processed

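Total RNA from lungs was sequenced in 6 libraries. The authors deposited raw counts per Ensembl gene, not normalized, and an FPKM table of these libraries rounded to 2 decimals. Per the submitters' processing notes, cutadapt 1.9.1, HISAT2 2.0.1, HTSeq 0.6.1 and GRCm38 were used; the annotation release, strand setting and handling of shared reads are not given in the sources used here. Symbols and coordinates came from GENCODE M21 (55394 identifiers matched, 179 did not).

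SS-31H_CS was compared with CS by edgeR's quasi-likelihood test across all genes (edgeR 4.0.16, R 4.3.3; TMM scaling; minimum count 10, minimum total 15), two-sided, with Benjamini-Hochberg adjustment over all 16965 tested genes and a threshold of 0.05. CPM use TMM-scaled library sizes, in which 3 counts make 0.172 to 0.185 CPM. A positive log2 fold change means higher in SS-31H_CS. The script was tested on simulated data. The genes and lists were chosen with earlier results of these data known. Named genes were the 9 members, up to 4 of each list with the lowest p, and the 5 nearest profiles (log2 CPM, prior count 2) of Cyp1a1 and Nqo1; other named genes were chosen after their values were seen, and some results for genes of the related lists are not reported here. Alternatives were other scaling and filters, DESeq2 1.42.0, limma 3.58.1 (voom, and trend on log2 FPKM with pseudocounts of 1 and 0.1), a replicate block and libraries left out. Within-group pairs of libraries differed by more than sampling noise (chi-square per gene 7.50 to 45.3).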

Additional observations from a re-analysis of the deposited data

How the results depend on the processing

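Over 17 alternative settings, the tested genes of the AHR list kept the sign of their log2 fold change in 118 of 119 values. The exception was Ugt1a6a, at 0.18 without CS replicate 2 (from -0.37 to 0.18 with single libraries left out). The number of all genes that changed was 26, and it was 12 with library size alone, 648 without the low-count filter, 948 by DESeq2, 6 by limma voom, and 6, 5 and 4 by limma on log2 FPKM (pseudocount 1, pseudocount 0.1, and pseudocount 1 without a filter). With a library left out it was 1 (without SS-31H_CS replicate 2) to 15 (without CS replicate 3). Of the AHR list 0 changed, against 3 without the low-count filter, 2 by DESeq2 and 3 without replicate 3 of both groups. The last fit leaves out the libraries in which the groups came closest for those genes, so its count is not separate support. The count at an unadjusted p under 0.05 was 4, and 2 in each of the limma fits on FPKM. The count of genes without overlap was 1, lower in SS-31H_CS, as were 12.4% of all tested genes. It was 1 to 4 with single libraries left out, and 4 without replicate 3 of both groups. With a single library left out, the count of 4 came without CS replicate 3, the lowest CS library for each of those genes. The median log2 fold change was -0.81, from -1.25 to -0.47 with single libraries left out and -1.60 without replicate 3 of both groups. Of the related lists 0 genes changed, against 5 without the low-count filter and 5 by DESeq2. Ido1 was at -0.65 without SS-31H_CS replicate 2, and up to 1.66 with other single libraries left out. With the replicate number as a block, 0 genes changed and 2 of the AHR list were at an unadjusted p under 0.05. Deviations of libraries with the same number correlated at 0.0072, 0.036 and -0.057, so the numbers were not taken to pair the samples. The cause of these changes was not tested. Ahrr and Cyp1a2 had too few counts for a test, and the deposited counts leave the genes of the Ugt1a locus uncertain. Values under 0.172 to 0.185 CPM, or 3 counts, cannot be told from 0 at this depth.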
